A study of Homo sapiens with 21 samples.

Results

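Human lung and pancreatic cancer cell lines were compared by their level of CDH1, the gene of E-cadherin. The groups were chosen by the raw CDH1 array signal: of the 10 lines of these tissues, the 5 with the highest signal were set against the 5 with the lowest. They are 10 of the 21 lines of the study, which profiled untreated cancer lines in normal culture with Illumina BeadChip arrays, 1 array a line, in work around their dependence on the histone demethylase LSD1. The E-cadherin-high lines were the pancreatic cancer lines BxPC-3, Capan-1 and AsPC-1 and the lines NCI-H596 and Malme-3M, both labelled as lung cancer. The E-cadherin-low lines were the lung cancer lines NCI-H1299, Calu-3 and Calu-1 and the pancreatic cancer lines Capan-2 and MIA-PaCa-2. No line was treated or edited, all media held serum, and each line is 1 established culture, so the spread between lines is the only spread the p-values measure.

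E-cadherin is the calcium-dependent adhesion protein that joins epithelial cells at adherens junctions, and its loss is a hallmark of the epithelial-to-mesenchymal transition (EMT). In that transition the repressors of the ZEB, SNAI and TWIST families silence epithelial genes, several of them through E-box motifs in promoters, while cells gain vimentin, N-cadherin and matrix proteins. In lung and pancreatic carcinoma, lines with and without E-cadherin are commonly described as epithelial-like and mesenchymal-like.

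The raw CDH1 signal that chose the lines was 15048 in BxPC-3, 12791 in Capan-1, 8228 in NCI-H596, 4473 in AsPC-1 and 2221 in Malme-3M. It was 286 in Capan-2, 122 in NCI-H1299, 113 in Calu-3, 113 in Calu-1 and 76.0 in MIA-PaCa-2. Malme-3M and Capan-2 are the lines on either side of the split, and the largest ratio between neighbouring lines lies between them. CDH1 was not detected, by the array's own detection p-value of 0.05, in the 4 lowest lines, and Capan-2 was the only low line in which it was. After background correction and quantile normalization, the CDH1 level was 12.72 ± 1.11 log2 intensity in the high lines and 5.40 ± 1.19 in the low lines (mean ± SD, n = 5 each). Levels below are on this log2 intensity scale, on which genes without signal lie near 5, and differences are E-cadherin-high minus low. Each fold or difference compares 1 gene between lines, never 2 genes.

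Some libraries went against their labels. The library labelled Malme-3M, a line known as a melanoma from a lung metastasis, had no detected signal of the melanocyte genes MLANA, TYR, DCT, TYRP1, SOX10 and S100B. Of 12 listed melanocyte genes 3 were detected in it, among them PMEL at 7.38, the highest of the 10 lines, and MITF was at 8.23 without being detected. It had raw signals of 20013 for KRT18, 10103 for EPCAM and 8847 for KRT19. In the library labelled Capan-2, KRT8 and KRT19 were not detected, KRT18 had a raw signal of 217, and EPCAM was present at 2643. The same library had glucagon (GCG, 13.45) and the stromal genes COL3A1 (13.84), LUM (10.83) and DCN (9.54). GCG was not detected in any other line. In the library labelled Calu-3, CDH1 was not detected, KRT19 had a raw signal of 336, and the neuroendocrine gene CHGB was at 13.11. Of the lung genes, NKX2-1 and SFTPB were not detected in any of the 10 lines. SCGB1A1 was detected in 4 high lines and no low line. It was 13.76 in the pancreatic line BxPC-3 and between 5.62 and 6.54 in the other high lines. In the low lines SCGB1A1 was between 5.01 and 5.60 (limma adjusted p = 0.484 in the comparison below). SFTPD was detected in 2 high lines and 1 low line. The pancreatic factor PDX1 was detected in AsPC-1, BxPC-3, Capan-1 and Capan-2. The names below are those of the labels, and the counts of genes called between high and low lines are also given without these 3 libraries.

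The share of genes detected ran from 40.7% to 43.7% over the 10 lines. A further 182 to 232 listed genes per line had a raw signal above 1000 and yet missed the detection threshold. Whole profiles correlated at a mean r of 0.868 within the high lines, 0.878 within the low lines and 0.838 between a high and a low line. For 9 of the 10 lines the most similar profile belonged to its own group. The exception was Malme-3M, nearest to Calu-3 (r = 0.888). BxPC-3 and Capan-1 were nearest to each other (r = 0.910), as were Capan-2 and NCI-H1299 (r = 0.907).

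A further 3 genes were given with the rule as markers of the E-cadherin-high lines, and their levels are a description without a test. CLDN7, a claudin of tight junctions, was 11.78 in BxPC-3, 12.41 in Capan-1, 14.59 in NCI-H596, 12.33 in AsPC-1 and 9.09 in Malme-3M, and between 4.76 and 5.17 in the low lines. MST1R, the receptor tyrosine kinase RON, was between 9.83 and 10.75 in the high lines and between 4.67 and 4.94 in the low lines. LAD1, ladinin of the basement membrane anchorage, was 12.36 in BxPC-3, 11.87 in Capan-1, 11.43 in NCI-H596, 10.94 in AsPC-1 and 9.79 in Malme-3M, where it missed detection. In the low lines LAD1 was between 5.17 and 5.51. None of the 3 genes was detected in any low line, and Malme-3M had the lowest level of each among the high lines.

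The E-box CAGGTG, with its reverse complement CACCTG, is the motif that ZEB and SNAI repressors are known to bind. It was searched on both strands in the 250 bases before the start of each gene, in RefSeq promoters of GRCh38.p14. Of the 66 genes called higher below, 53 were matched to a promoter, and 17 of these (32.1%) held the motif, 7 of them (13.2%) at 2 or more places. The markers LAD1, with 2 motifs, and MST1R, with 1, are counted among the 17. Of the 9837 promoters matched to all genes tested, 16.2% held the motif and 2.05% held it at 2 or more places. Of all 27305 promoters of that length in the table, 17.5% held it and 2.55% held it at 2 or more places. These shares are a description, and a match is not a binding site. Of the 21 genes called lower, 13 were matched, and 4 of these (30.8%) held the motif, 1 of them (SLC2A14) at 2 or more places. The windows of LAD1, RAB17, DSP and LCN2 are shown as examples from the genes called higher that held the motif at 2 or more places. That of SLC2A14, called lower, is not shown. Capitals mark the motif, and each window is read 5′ to 3′ on the strand of its gene, ending at the base before the start.
LAD1: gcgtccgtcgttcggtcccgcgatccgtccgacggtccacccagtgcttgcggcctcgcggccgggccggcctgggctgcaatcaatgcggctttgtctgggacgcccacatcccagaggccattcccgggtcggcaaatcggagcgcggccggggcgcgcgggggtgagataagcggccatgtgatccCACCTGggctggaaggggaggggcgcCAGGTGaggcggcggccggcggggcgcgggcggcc
RAB17: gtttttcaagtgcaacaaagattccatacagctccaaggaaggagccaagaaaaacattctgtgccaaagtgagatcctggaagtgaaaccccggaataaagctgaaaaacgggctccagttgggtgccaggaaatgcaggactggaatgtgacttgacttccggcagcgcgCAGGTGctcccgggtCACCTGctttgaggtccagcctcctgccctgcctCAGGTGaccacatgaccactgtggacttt
DSP: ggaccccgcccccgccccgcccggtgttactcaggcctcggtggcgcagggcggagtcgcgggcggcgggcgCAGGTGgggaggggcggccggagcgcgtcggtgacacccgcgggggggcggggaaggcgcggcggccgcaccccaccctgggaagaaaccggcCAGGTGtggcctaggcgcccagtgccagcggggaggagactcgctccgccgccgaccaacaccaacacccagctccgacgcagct
LCN2: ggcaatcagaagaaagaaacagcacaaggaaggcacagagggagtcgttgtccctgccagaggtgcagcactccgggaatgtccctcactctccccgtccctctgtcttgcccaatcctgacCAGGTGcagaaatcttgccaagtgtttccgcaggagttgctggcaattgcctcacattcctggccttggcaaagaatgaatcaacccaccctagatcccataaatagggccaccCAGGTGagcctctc
The LAD1 window is chr1:201399325-201399574 on the minus strand, with motifs 61 and 35 bases before the start (-61 and -35). RAB17 lies at chr2:237590735-237590984 on the minus strand, with motifs at -78, -63 and -29. The window of DSP is chr6:7541421-7541670 on the plus strand, with motifs at -178 and -85. That of LCN2 is chr9:128149203-128149452 on the plus strand, with motifs at -128 and -14.

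The comparison asked which genes went with E-cadherin across these lines. It used limma's moderated test over all 16805 genes detected in at least 3 of the 10 lines, CDH1 left out, with a call at a Benjamini-Hochberg adjusted p under 0.05. The antiproteases SLPI and PI3, the desmosomal genes JUP, PKP2, PKP3 and DSP, the laminin chain LAMA3, and the antimicrobial and mucosal products LCN2, S100P and AGR2 were higher in E-cadherin-high lines. The glucose transporter SLC2A3, the tumour antigen PRAME and COCH were lower. In all, 87 of 16805 genes were called (0.518%), 66 higher (0.393%) and 21 lower (0.125%). The 3 markers are among the 66, which leaves 63 others. At an unadjusted p under 0.05, 2219 genes passed (13.2%). Every high line lay above every low line for 287 genes (1.71%), and every low line above every high line for 220 (1.31%). Among the 63, the median difference was 3.52 log2, and 19 were detected in no low line. Among the 21, the median difference was -2.68 log2, and 6 were detected in no high line. Since the groups were drawn from CDH1 on the same arrays, a p-value here says how well a gene separates lines ranked by CDH1. Lists of genes below were chosen with earlier results of these data known, so their counts, signs and medians are a description.

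The count changed when single lines were left out, and each such fit also holds fewer lines. The count was 278 without Malme-3M, with all 87 genes of the full comparison among them. It was 37 without Capan-2, 43 without NCI-H596, 44 without NCI-H1299, 45 without BxPC-3, 49 without Capan-1 and 55 without AsPC-1. It was 60 without Calu-1, 60 without MIA-PaCa-2 and 90 without Calu-3. Without the libraries labelled Calu-3, Malme-3M and Capan-2, 125 genes were called, 89 higher and 36 lower, of which 43 were among the 87. Of 38 called genes named by rule, the markers set aside, 20 kept their call without each line in turn, and all 38 kept their direction in every alternative run. No list median over tested members changed sign with the background correction, the offset, the normalization or the authors' processed values.

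**Figure D1:**
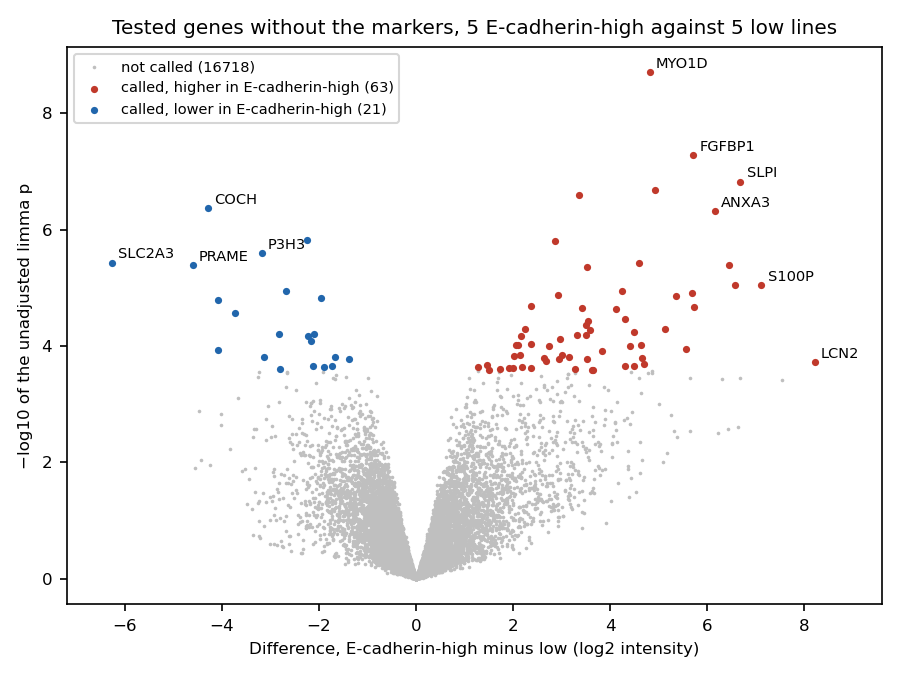
Each point is 1 of the tested genes other than the 3 markers. The horizontal axis is the difference in log2 intensity (E-cadherin-high minus low) and the vertical axis is −log10 of the unadjusted limma p. Red points are the 63 genes called higher and blue points the 21 called lower; LCN2 lies farthest to the right at 8.21 and SLC2A3 farthest to the left at -6.27.

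LCN2, S100P, SLPI and PI3, all expressed in mucosal epithelia, are among the called genes with large differences. SLPI, a secreted inhibitor of neutrophil elastase, was 12.62 in BxPC-3, 11.29 in Capan-1, 13.19 in NCI-H596, 10.89 in AsPC-1 and 9.95 in Malme-3M. In the low lines SLPI was 4.90 in Capan-2, 4.83 in NCI-H1299, 4.88 in Calu-3, 5.05 in Calu-1 and 4.86 in MIA-PaCa-2. The gene was detected in every high line and no low line, so that its difference was at least 72.7-fold (limma adjusted p = 0.000497). PI3 (elafin), a related elastase inhibitor, was 14.33 in BxPC-3, 12.25 in Capan-1, 12.99 in NCI-H596, 9.04 in AsPC-1 and 10.93 in Malme-3M. PI3 stood between 4.96 and 5.73 in the low lines and was at least 85.3-fold higher in the high lines (limma adjusted p = 0.00762). FGFBP1, which releases fibroblast growth factors from the matrix, ran from 9.91 to 12.15 in the high lines and from 4.79 to 5.18 in the low lines. Its difference was at least 38.9-fold (limma adjusted p = 0.000218). For none of these genes did the groups overlap, and all 3 kept their call without each line in turn.

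S100P, a calcium-binding protein of pancreatic and other carcinomas, was 13.83 in BxPC-3, 11.09 in Capan-1, 14.18 in NCI-H596, 13.52 in AsPC-1 and 11.86 in Malme-3M. It was 8.91 in Calu-3, the only low line in which it was detected, and between 4.85 and 5.23 in the other low lines. The difference was 7.11 log2 (SE 0.88, limma adjusted p = 0.00762). AGR2, an endoplasmic reticulum protein of mucus-producing cells, ran from 11.52 to 13.65 in the high lines. Calu-3 again was the highest low line for AGR2, at 10.39, while the other low lines were between 5.48 and 5.93. The AGR2 difference was 5.56 log2 (SE 0.92, limma adjusted p = 0.035), and its highest adjusted p with 1 line left out was 0.107, without NCI-H1299. AGR2 kept its call in 2 of these 10 cases. LCN2, the iron-scavenging lipocalin of the antimicrobial response, was 15.01 in BxPC-3, 15.66 in Capan-1, 15.85 in NCI-H596, 15.46 in AsPC-1 and 7.36 in Malme-3M. LCN2 was between 5.24 and 6.25 in the low lines, so Malme-3M lay close to them. Its difference of 8.21 log2 (SE 1.45) had a limma adjusted p of 0.0459, which was 0.121 without NCI-H1299, and the call remained only without Malme-3M. Together 19 of the 20 listed mucin and secretory genes were tested and 4 were called, all higher (SLPI, S100P, AGR2 and LCN2). The median difference over all 20 was 2.91 log2, against -0.0155 over all genes on the array, a description since the list was chosen with earlier results known. Without the 3 libraries, 5 were called. CEACAM6, a cell-surface carcinoembryonic antigen, was between 6.77 and 15.26 in the high lines and between 4.79 and 6.44 in the low lines (limma adjusted p = 0.0555).

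The next list holds the genes of desmosomes and hemidesmosomes, the adhesive plaques that tie epithelial cells to keratin filaments and to the basement membrane. All 17 listed genes were tested. With LAD1 set aside, 5 of 16 were called, all higher, and the median difference over these 16 was 3.19 log2. It was 3.25 log2 over the 17 with LAD1. JUP, plakoglobin of desmosomes and adherens junctions, was 11.25 in BxPC-3, 12.40 in Capan-1, 11.19 in NCI-H596, 11.79 in AsPC-1 and 8.78 in Malme-3M. JUP was 5.48 in Capan-2, 6.56 in NCI-H1299, 6.52 in Calu-3, 6.15 in Calu-1 and 8.24 in MIA-PaCa-2, so the groups met between Malme-3M and MIA-PaCa-2 without overlapping. Its difference was 4.49 log2 (SE 0.69, limma adjusted p = 0.0248). LAMA3, a chain of the epithelial laminin of hemidesmosomes, ran from 8.14 in Malme-3M to 11.44 in BxPC-3 and was detected in no low line, at least 20.3-fold higher (limma adjusted p = 0.00403). PKP2 and PKP3, the plakophilins that link desmosomal cadherins to the plaque, differed by 3.58 and 2.24 log2 (limma adjusted p = 0.0235 and 0.0234). DSP, desmoplakin of the plaque, was 10.18 in BxPC-3, 8.78 in Capan-1, 10.00 in NCI-H596, 8.55 in AsPC-1 and 8.71 in Malme-3M. DSP was 7.86 in Capan-2 and between 5.58 and 6.63 in the other low lines, a difference of 2.68 log2 (SE 0.47, limma adjusted p = 0.0447). Of these 5 genes LAMA3 alone kept its call without each line in turn. The highest adjusted p with 1 line left out was 0.0722 for JUP, 0.0721 for PKP3 and 0.113 for DSP, each without NCI-H1299, and 0.069 for PKP2, without Capan-2. Of these 10 cases, JUP and PKP2 each kept the call in 3, PKP3 in 5 and DSP in 2. Without the 3 libraries, 4 of the 17, the marker included, were called. The desmosomal cadherins DSG2 and DSC2 were not called (limma adjusted p = 0.0906 and 0.0825), and COL17A1 ranged from 6.54 to 14.18 within the high lines.

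Adherens and tight junctions hold epithelial cells together and seal the space between them. Of their 18 listed genes 15 were tested, and with CLDN7 set aside 2 of 14 were called, both higher. MARVELD2 (tricellulin), which seals the corners where 3 cells meet, was between 7.53 and 9.75 in the high lines. It was 7.05 in MIA-PaCa-2 and between 4.83 and 5.02 in the other low lines, detected in none of them, and at least 7.65-fold higher in the high lines (limma adjusted p = 0.0249, and 0.0804 without NCI-H1299). MARVELD2 kept its call in 3 of 10 cases with 1 line left out. P-cadherin (CDH3) was 12.24 in BxPC-3, 10.05 in Capan-1, 12.53 in NCI-H596, 7.09 in AsPC-1 and 11.63 in Malme-3M. CDH3 was also 11.57 in Capan-2, against 4.85 to 5.21 in the other low lines, and was not called (limma adjusted p = 0.242). All 18 genes, CLDN7 included, had a positive difference, with a median of 2.66 log2. Of all 33897 genes on the array, CDH1 left out, 15833 had a positive difference. Because the list was chosen with earlier results known, that contrast is a description and not a test. Without the 3 libraries, 4 of the list were called, with CLDN7 among the genes tested. F11R, a junctional adhesion molecule, had levels of 8.55 to 10.47 in the high lines and 5.51 to 6.67 in the low lines but met the detection threshold in no line and was not tested.

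Among surface receptors and serine proteases, 17 of 18 listed genes were tested and, with MST1R set aside, 1 of 16 was called. This was SPINT1, an inhibitor of the membrane protease matriptase and of the activator of hepatocyte growth factor. SPINT1 was 9.66 in BxPC-3, 9.76 in Capan-1, 10.98 in NCI-H596, 8.92 in AsPC-1 and 7.38 in Malme-3M, and between 5.05 and 5.17 in the low lines, none of which detected it. It was at least 15.3-fold higher (limma adjusted p = 0.0087). Matriptase itself (ST14) was between 5.86 and 11.38 in the high lines and between 4.70 and 5.29 in the low lines, with a limma adjusted p of 0.0503. EPCAM, the epithelial adhesion molecule, was 13.03 in BxPC-3, 14.45 in Capan-1, 13.82 in NCI-H596, 14.74 in AsPC-1 and 13.40 in Malme-3M. EPCAM was 11.43 in Capan-2, 5.87 in NCI-H1299, 10.09 in Calu-3, 8.51 in Calu-1 and 5.33 in MIA-PaCa-2. The EPCAM groups did not overlap, but the low lines ran from 5.33 to 11.43 and the limma adjusted p was 0.0528. Without the 3 libraries, 5 of the list were called.

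Trafficking and polarity genes held 1 call among 18 tested of 19 listed, C1orf116, an androgen-responsive gene. In the fit without the 3 libraries, 3 of the list were called. C1orf116 ran from 8.49 in Malme-3M to 10.81 in BxPC-3 and was detected in no low line, at least 25.3-fold higher (limma adjusted p = 0.000591). Outside the lists, RAB17, a small GTPase of polarised transport, was 9.83 in BxPC-3, 11.81 in Capan-1, 11.12 in NCI-H596, 10.63 in AsPC-1 and 10.88 in Malme-3M. It was 8.93 in MIA-PaCa-2 and between 4.78 and 5.11 in the other low lines (limma adjusted p = 0.0234, and 0.0721 without NCI-H1299). RAB17 kept its call in 4 of 10 cases with 1 line left out. RAB25, a GTPase of the recycling endosome, separated the high lines themselves, at 12.42 in BxPC-3, 12.83 in Capan-1 and 13.47 in NCI-H596 against 5.48 in AsPC-1 and 5.79 in Malme-3M. RAB25 was not called (limma adjusted p = 0.256). MYO1D, an actin motor of the cell cortex, had the smallest p apart from the markers and is named because of that value. It was 9.50 in BxPC-3, 9.76 in Capan-1, 10.08 in NCI-H596, 9.77 in AsPC-1 and 10.49 in Malme-3M. In the low lines MYO1D was 5.00 in Capan-2, 4.89 in NCI-H1299, 4.91 in Calu-3, 5.73 in Calu-1 and 5.00 in MIA-PaCa-2. MYO1D was detected in no low line, its difference was at least 21.8-fold (limma adjusted p = 1.65e-05), and Malme-3M was the highest of the high lines.

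Further genes called higher were ANXA3, an annexin, at least 58.8-fold (limma adjusted p = 0.00088), and SH2D3A, a signalling adaptor, by 3.35 log2 (SE 0.28, limma adjusted p = 0.000611). SFN (14-3-3 sigma), a p53 target of epithelial cells, differed by 5.69 log2 (limma adjusted p = 0.00875). It was 8.76 in Calu-1 and between 4.97 and 6.32 in the other low lines. SERPINB5 (maspin), a serpin of epithelial cells, was also high in Calu-1, at 9.05, and between 5.20 and 5.68 in the other low lines. Its difference was 5.72 log2 (limma adjusted p = 0.0121). INAVA, an adaptor of epithelial junctions and cytokine signalling, was between 10.27 and 12.28 in the high lines, 8.69 in Capan-2, 6.49 in Calu-1 and between 4.96 and 5.43 in the remaining low lines (limma adjusted p = 0.0091). LRATD2, of a lecithin retinol acyltransferase-like family, differed by 6.45 log2 (limma adjusted p = 0.00403). ARHGEF5 and ARHGEF35, near-identical copies whose signals may not be separable, were both called higher. Over the 63 genes, the lowest high line was Malme-3M for 26, BxPC-3 for 13, Capan-1 for 13, AsPC-1 for 6 and NCI-H596 for 5. The highest low line was Calu-1 for 22, MIA-PaCa-2 for 14, Calu-3 for 12, NCI-H1299 for 10 and Capan-2 for 5. Capan-2, the low line with the most CDH1, had the smallest of these counts among the low lines. The same counts were not made over all genes tested, so they describe these 63 genes only.

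**Figure D2:**
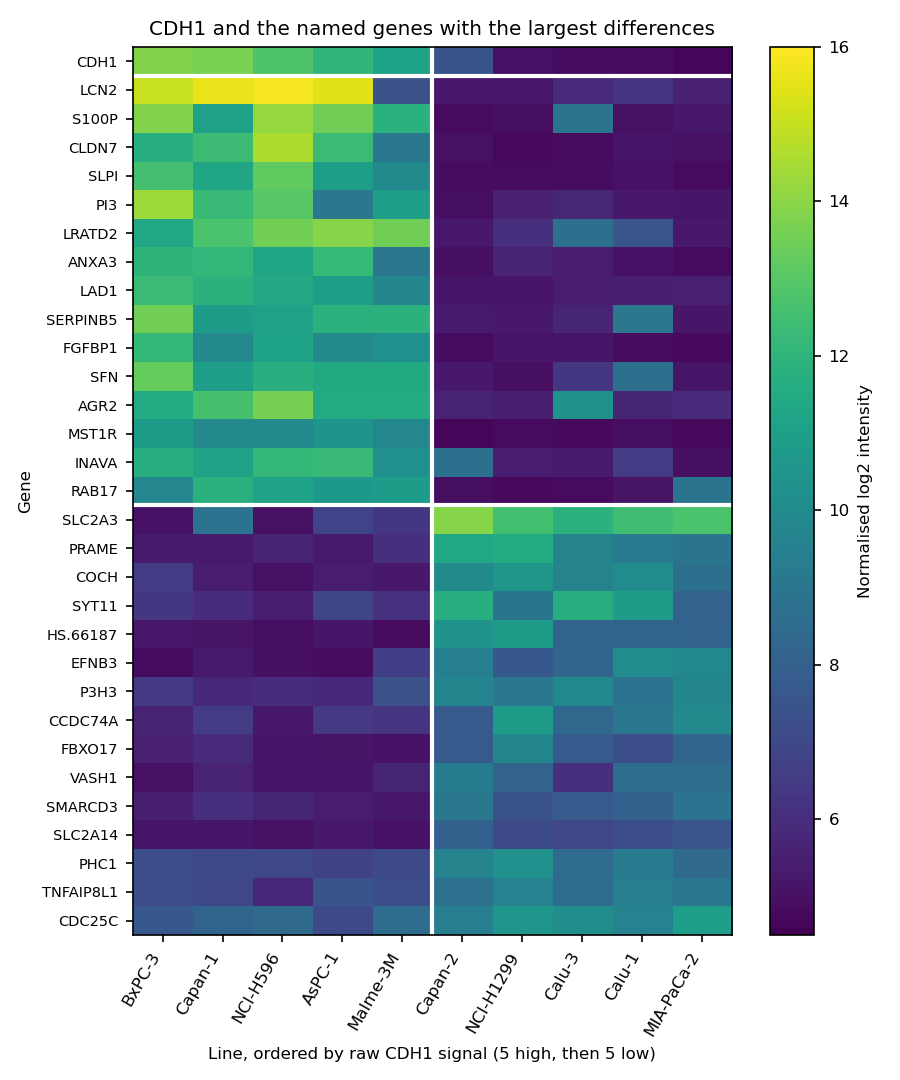
Normalised log2 intensity by line (columns, ordered by raw CDH1 signal, a white line between the 5 high and the 5 low lines) of CDH1 and of the called genes with the largest differences in each direction (rows). CDH1, the 15 genes called higher and the 15 called lower stand in 3 blocks from top to bottom; single bright cells in the low lines include AGR2 and S100P in Calu-3 (10.39 and 8.91), RAB17 in MIA-PaCa-2 (8.93) and SERPINB5 in Calu-1 (9.05).

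SLC2A3 (GLUT3), a high-affinity glucose transporter best known from neurons, was the gene furthest below in the E-cadherin-high lines. It was 5.05 in BxPC-3, 8.89 in Capan-1, 5.03 in NCI-H596, 6.83 in AsPC-1 and 6.33 in Malme-3M. In the low lines SLC2A3 was 13.89 in Capan-2, 12.54 in NCI-H1299, 11.85 in Calu-3, 12.46 in Calu-1 and 12.75 in MIA-PaCa-2. The means were 6.43 ± 1.59 and 12.70 ± 0.75 (SD, n = 5 each), a difference of -6.27 log2 (SE 0.71, limma adjusted p = 0.00403), and 77.3-fold. Its near-identical neighbour SLC2A14 was also called lower, by at least 3.99-fold (limma adjusted p = 0.0024), and the array may not separate the pair. The glycolytic enzymes, the pathway that glucose feeds, held no call among 14 tested of 15 listed, with a median difference over those tested of -0.05 log2. That median ran from -0.43 without Malme-3M to -0.02 without Calu-1, and was -0.71 log2 without the 3 libraries, again with no call. HK2, hexokinase of the first step, differed by 1.17 log2 (limma adjusted p = 0.262).

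PRAME, a cancer-testis antigen, was 11.36 in Capan-2, 11.57 in NCI-H1299, 9.63 in Calu-3, 9.19 in Calu-1 and 8.94 in MIA-PaCa-2. It was between 5.32 and 6.05 in the high lines and detected in none of them, at least 23.6-fold lower there (limma adjusted p = 0.00403). COCH (cochlin), a matrix protein of the inner ear, was 9.99 in Capan-2, 10.58 in NCI-H1299, 9.66 in Calu-3, 10.06 in Calu-1 and 8.74 in MIA-PaCa-2. In the high lines COCH was 6.55 in BxPC-3 and between 5.02 and 5.38 elsewhere, detected in none, at least 17.9-fold lower (limma adjusted p = 0.00088). SYT11, a synaptotagmin of vesicle traffic, differed by -4.09 log2 (limma adjusted p = 0.036), and EFNB3, an ephrin ligand, by -3.72 log2 (limma adjusted p = 0.014). P3H3, a collagen prolyl hydroxylase family member, was between 8.88 and 9.85 in the low lines and between 5.78 and 7.33 in the high lines (limma adjusted p = 0.00347). SMARCD3, a subunit of the SWI/SNF chromatin remodelling complex, differed by -2.68 log2 (limma adjusted p = 0.0087), and PHC1, of the Polycomb repressive complex, by -2.22 log2 (limma adjusted p = 0.0255). CDC25C, the phosphatase that starts mitosis, was between 9.43 and 10.93 in the low lines and between 7.04 and 8.62 in the high lines. Its limma adjusted p was 0.0492 and reached 0.128 without NCI-H1299. CDC25C kept its call in 1 of the 10 cases with 1 line left out, that without Malme-3M. SLC2A3, PRAME, COCH, P3H3 and SMARCD3 kept their call without each line in turn, SYT11 kept it in 3 of the 10 cases and PHC1 in 4, and EFNB3 lost it without Capan-2 (adjusted p = 0.0514).

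Proliferation genes held no call beyond CDC25C, which is not on their list. Every one of the 16 had a negative difference, with a median of -1.59 log2. Of all 16805 genes tested, 9149 had a negative difference. This list too was chosen with earlier results known, so the shared sign is a description. BUB1, a mitotic checkpoint kinase, was 10.38 in BxPC-3, 11.07 in Capan-1, 9.86 in NCI-H596, 6.97 in AsPC-1 and 10.93 in Malme-3M, and between 11.25 and 12.53 in the low lines (limma adjusted p = 0.236). MKI67, the gene of the Ki-67 antigen, was between 4.87 and 7.72 in the high lines and between 7.89 and 8.76 in the low lines (limma adjusted p = 0.248). AsPC-1 had the lowest list mean, 7.86, against 10.48 to 11.35 in the other high lines and 11.51 to 12.14 in the low lines. Without AsPC-1, 14 of the 16 genes had a negative difference, and the median was -1.01 log2. Whether growth at harvest moved with the E-cadherin groups was not tested.

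EMT transcription factors gave no call among 11 tested of 12 listed. ZEB1, a repressor of CDH1, was 4.73 in BxPC-3, 4.79 in Capan-1, 4.73 in NCI-H596, 6.24 in AsPC-1 and 4.95 in Malme-3M. ZEB1 was 4.78 in Capan-2, 6.12 in NCI-H1299, 6.60 in Calu-3, 7.27 in Calu-1 and 6.46 in MIA-PaCa-2. It was detected in 4 of the 5 low lines and in AsPC-1, and not in Capan-2 (limma adjusted p = 0.327). ZEB2, its paralog, was 10.17 in Capan-2, 7.71 in NCI-H1299 and 7.48 in Calu-1, and was detected in no other line (limma adjusted p = 0.315). Each low line thus detected ZEB1 or ZEB2, and NCI-H1299 and Calu-1 detected both. SNAI2 (SLUG) was between 9.67 and 12.38 in the high lines, at 12.84 in Calu-1 and between 5.68 and 8.70 in the remaining low lines (limma adjusted p = 0.382). SNAI1 was not detected in any line. PRRX1, a mesenchymal homeobox factor, was between 5.30 and 5.46 in the high lines and 6.88 in Capan-2, 8.86 in NCI-H1299, 10.32 in Calu-3, 7.83 in Calu-1 and 5.55 in MIA-PaCa-2 (limma adjusted p = 0.183). The median difference over the 12 was -1.46 log2.

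None of the mesenchymal genes was called. Vimentin (VIM), the mesenchymal intermediate filament, was 11.06 in BxPC-3, 8.61 in Capan-1, 7.51 in NCI-H596, 15.20 in AsPC-1 and 14.50 in Malme-3M. VIM was 15.44 in Capan-2, 15.37 in NCI-H1299, 15.23 in Calu-3, 8.45 in Calu-1 and 15.39 in MIA-PaCa-2, so both groups held lines with high and lines with low vimentin (limma adjusted p = 0.598). N-cadherin (CDH2) was above 9 in BxPC-3, Capan-1, NCI-H596 and Malme-3M, at 9.19, 11.79, 9.43 and 11.47, and also in Capan-2 and NCI-H1299, at 12.65 and 11.94. It was between 5.19 and 5.52 in AsPC-1, Calu-3, Calu-1 and MIA-PaCa-2 (limma adjusted p = 0.817). Of 19 listed mesenchymal genes 17 were tested, with a median difference of -0.62 log2. Matrix genes gave no call among 15 tested of 20 listed, with a median of -0.54 log2 over the 20. COL6A3, a chain of collagen VI, was 10.40 in Calu-3, 9.62 in Calu-1 and 10.50 in MIA-PaCa-2 and between 5.05 and 5.92 in the other 7 lines (limma adjusted p = 0.293). The median over the tested matrix genes was -0.93 log2, 0.02 without Calu-1, -1.48 without Capan-2 and -1.86 without the 3 libraries. That over the tested mesenchymal genes was -0.22 without Calu-1, -1.43 without Capan-2 and -1.07 without the 3 libraries. Without the 3 libraries 1 matrix gene was called lower, and no mesenchymal gene.

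**Figure D3:**
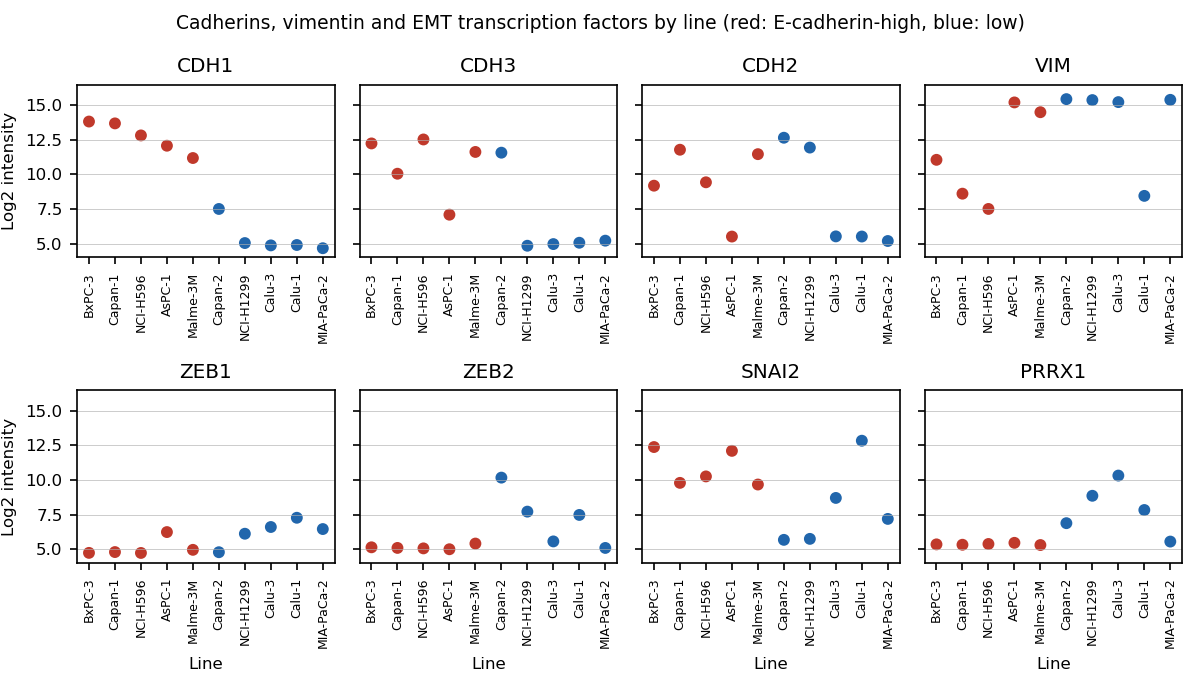
Normalised log2 intensity (vertical axes, from 4) of 3 cadherins, vimentin and 4 EMT transcription factors in each line (horizontal axes, ordered by raw CDH1 signal), with E-cadherin-high lines in red and low lines in blue. Vimentin is above 14 in AsPC-1 and Malme-3M as in 4 of the low lines, ZEB1 is above its floor in AsPC-1 (6.24) and 4 low lines, and N-cadherin (CDH2) is high in lines of both groups.

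Regulators of the epithelial state gave 1 call among 11 tested of 18 listed. KLF5, a Krüppel-like factor of epithelia, was 8.93 in BxPC-3, 7.67 in Capan-1, 8.59 in NCI-H596, 9.62 in AsPC-1 and 6.81 in Malme-3M. It was between 5.11 and 5.79 in the low lines, detected in none of them, and at least 7.12-fold higher in the high lines (limma adjusted p = 0.0281, and 0.087 without NCI-H1299). KLF5 kept its call in 5 of 10 cases with 1 line left out. No gene of the list was called without background correction, with an offset of 50 or with the authors' processed values. ESRP1, the epithelial splicing regulator, was 7.93 in BxPC-3, 9.78 in Capan-1, 10.52 in NCI-H596, 6.10 in AsPC-1 and 6.94 in Malme-3M, and between 5.25 and 5.61 in the low lines (limma adjusted p = 0.153). GRHL2, a grainyhead-like factor that acts on CDH1, was 7.91, 7.87 and 10.30 in BxPC-3, Capan-1 and NCI-H596, and was not detected in AsPC-1 or Malme-3M (limma adjusted p = 0.298). ELF3 differed by 3.65 log2 (limma adjusted p = 0.097). BxPC-3, Capan-1 and NCI-H596 were thus the high lines with GRHL2 and RAB25, and AsPC-1 and Malme-3M those without. The median difference over all 18 was 1.90 log2, and 1 gene of the list was called without the 3 libraries.

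Keratins, the intermediate filaments of epithelia, gave no call among 10 tested of 13 listed, with a median difference of 1.76 log2. KRT19 of simple ducts was 15.14 in BxPC-3, 14.96 in Capan-1, 14.74 in NCI-H596, 14.92 in AsPC-1 and 13.21 in Malme-3M. KRT19 was 12.89 in MIA-PaCa-2, 8.23 in Calu-1, 7.98 in Calu-3, 5.32 in NCI-H1299 and 5.16 in Capan-2 (limma adjusted p = 0.0528). KRT18 was between 14.27 and 15.60 in every line but Capan-2, where it was 6.79. KRT17, a basal keratin, was 14.57 in BxPC-3 and between 5.36 and 8.24 in the other high lines (limma adjusted p = 0.381).

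**Figure D4:**
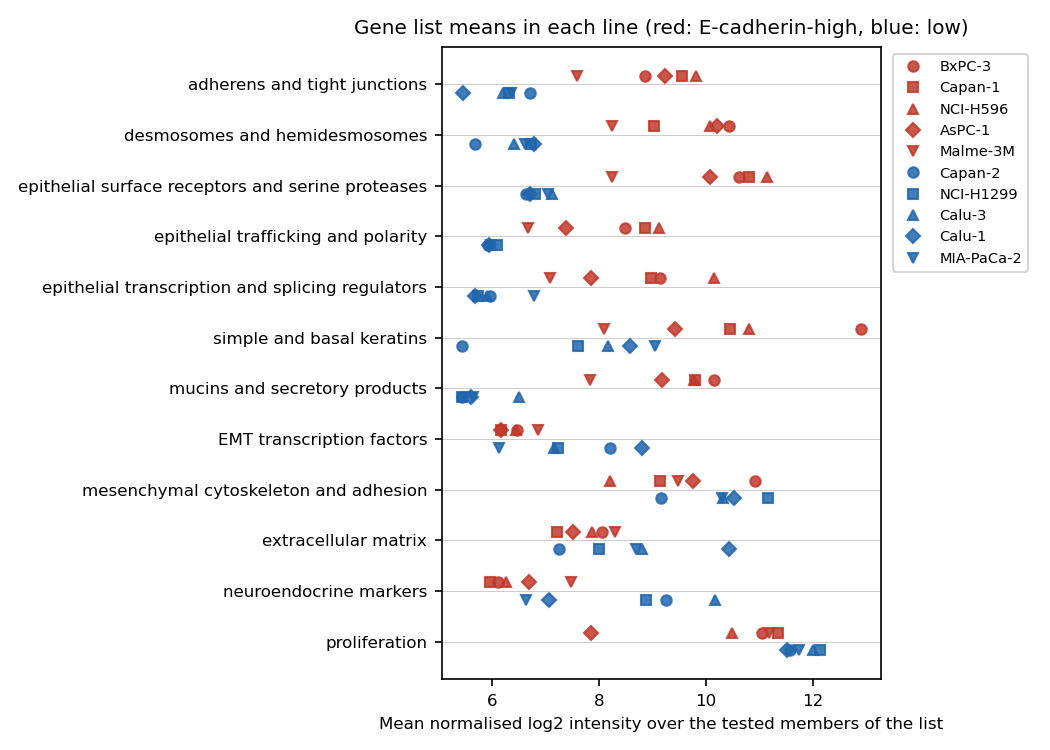
Mean normalised log2 intensity over the tested members of 12 gene lists (vertical axis) in each line (points, with E-cadherin-high lines in red and low lines in blue). The markers CLDN7, LAD1 and MST1R are included in the means of their lists. The groups do not overlap for desmosomes, where high lines run from 8.24 to 10.44 and low lines from 5.67 to 6.78, and they overlap for mesenchymal genes (8.21 to 10.92 and 9.16 to 11.17); since genes entered through detection in 3 lines, separation of a list mean is a description.

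KDM1A, the gene of LSD1, was not called. Its level was 11.91 ± 0.62 in the high lines and 11.86 ± 0.13 in the low lines, a difference of 0.05 log2 (SE 0.29, limma adjusted p = 0.965). LSD1 acts with the CoREST corepressor, and none of the 13 tested of 15 listed genes of that complex was called. RCOR2, a CoREST paralog of stem and neural cells, was between 6.56 and 7.60 in the high lines and 11.22 in Capan-2, 8.30 in NCI-H1299, 11.02 in Calu-3, 7.61 in Calu-1 and 9.13 in MIA-PaCa-2 (limma adjusted p = 0.163). The TGF-beta ligands, receptors and mediators, which drive EMT, gave no call among 13 tested of 15 listed. SMAD4, the shared mediator of that pathway, was 4.92 in BxPC-3 and 7.16 in Capan-1, and between 10.35 and 11.67 in the other 8 lines (limma adjusted p = 0.379). No gene of the LSD1, TGF-beta, keratin, EMT factor or proliferation lists was called without the 3 libraries.

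Markers of other cell types were read beside these results. Neuroendocrine genes were detected for 3 to 5 of the 12 listed in the high lines and for 3 to 7 in the low lines, with summed raw signals of 2048 to 22074 and 2605 to 50948. CHGB (chromogranin B), a granule protein, was 11.55 in Capan-2, 8.91 in NCI-H1299, 13.11 in Calu-3, 7.30 in Calu-1 and 7.67 in MIA-PaCa-2, and between 4.90 and 6.13 in the high lines. It was not called (limma adjusted p = 0.105). The defining gene NEUROD1 was not detected in any line. Leukocyte and stromal genes were detected for 1 to 5 of 12 in the high lines and 1 to 3 in the low lines, with summed raw signals of 2307 to 12097 and 2211 to 5845, and PTPRC was not detected in any line. Melanocyte genes were detected for 2 to 3 of 12 in the high lines and 1 to 4 in the low lines, with summed raw signals of 1977 to 3465 and 1960 to 10009. Lung genes were detected for 1 to 2 of 9 in the high lines and 0 to 2 in the low lines. Their summed raw signals were 1150 to 15671 and 1183 to 1351, the highest in BxPC-3. Pancreatic genes were detected for 1 to 4 of 10 in the high lines and 1 to 2 in the low lines, and hepatocyte genes for 0 to 2 of 10 and 1 to 3. The part of other cell types in the differences above was not tested.

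Whether the E-cadherin difference itself differed between tissues was tested with an interaction term over 2 high and 3 low lung lines and 3 high and 2 low pancreatic lines. It called 1 of 16805 genes (0.00595%), with 944 at an unadjusted p under 0.05 (5.62%). The gene was KCTD14, of the potassium channel tetramerisation domain family, named because of this value. Among pancreatic lines KCTD14 was 8.97 in BxPC-3, 9.78 in Capan-1 and 9.25 in AsPC-1 against 5.10 in Capan-2 and 5.04 in MIA-PaCa-2. Among lung lines the order was opposite, with 5.17 in NCI-H596 and 5.61 in Malme-3M against 9.41 in NCI-H1299, 10.69 in Calu-3 and 10.08 in Calu-1. The differences were 4.26 log2 in pancreas and -4.67 log2 in lung, and their difference was -8.93 log2 (SE 0.60, limma adjusted p = 0.00441). With 1 line left out the number of genes called by the interaction ran from 1 to 32, the latter without MIA-PaCa-2. The interaction was not fitted without the libraries labelled Calu-3, Malme-3M and Capan-2 together. Within the lung lines alone 6 genes were called for the E-cadherin split, all higher, and within the pancreatic lines alone 110, of which 34 were lower.

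The genes with the pattern most like CDH1 over the 10 lines, by Pearson correlation of log2 intensity, were LAD1 (r = 0.974), INAVA (0.966), SLPI (0.965), PICK1 (0.964), MST1R (0.962), SH2D3A (0.962), C1orf116 (0.961), ANXA3 (0.960), FGFBP1 (0.958) and LOC730347 (0.95). The correlation is a description, since CDH1 set the groups and the lines fall into 2 clusters by CDH1. PICK1, a scaffold protein of membrane receptors, was not called in any of the alternatives run.

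The hepatocellular carcinoma (HCC) lines of the study, read on another array design, had no part in the choice. In the 10 HCC lines of 1 table, CDH1 was 11.25 in Huh-1, 10.37 in PLC/PRF/5, 8.36 in SNU-886 and 6.03 in SNU-423, and not detected in the other 6. Of the 63 genes called higher, 48 were measured there, and 36 of these (75%) correlated positively with CDH1, with a median r of 0.29. Over all 15020 genes detected in 3 of these lines 48.7% were positive, with a median r of -0.0135. Of the 21 genes called lower, 17 were measured and 12 correlated negatively, with a median r of -0.215. Huh-1 and PLC/PRF/5 were the 2 lines farthest from the median of CDH1. Without them, 27 of the 48 were positive with a median r of 0.046, against 7323 of all 15020 genes. They are also the 2 lines with the most CDH1, and CDH1 was not detected in 6 of the lines that remain. The omission therefore cannot show what the positive share rests on. Of the 17 genes called lower, 4 were positive without Huh-1 and PLC/PRF/5, with a median r of -0.22. The points share an array design and CDH1 falls into clusters, and no p-value is given.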

How the data were processed

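Total RNA of each line was amplified, biotin-labelled and read on Illumina BeadChips, and the authors used BeadStudio, per the submitters' processing notes, which name no version. The deposited raw table gives, per the file headers, an average bead intensity and a detection p-value for each of 34601 listed genes in each line. Nothing in the labels or headers says how probes were combined into 1 value a gene. The authors also deposited processed intensity values, which served as an alternative; each of the 10 processed columns matched the raw column of its own line best. Gene names were updated through a RefSeq table, with 17751 rows matched by symbol, 2941 by accession and 912 by synonym and 12997 kept as listed, giving 33898 genes.

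Background was corrected with limma 3.58.1 in R 4.3.3 by the normal-exponential model, using a control mean and SD estimated by regressing the median intensity of genes that share a detection p-value on its normal quantile, and an offset of 16. Log2 values of the 10 arrays were then quantile normalized. Of several names of 1 gene the brightest was kept. Genes detected (p under 0.05) in at least 3 lines were tested with lmFit and eBayes, 5 lines against 5, with Benjamini-Hochberg adjustment over 16805 genes and a call at 0.05. A gene detected in no line of 1 side has a lower bound for its fold, against the higher of the lowest detected level of each array and the gene's own level. The fit was tested on simulated data. Python 3.11.15 with pandas 2.3.3 and matplotlib 3.10.9 drew the figures. Precision is limited by 1 array a line.

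The rule for named genes took up to 15 called genes a direction by size, the called members of each of 20 lists (otherwise the members with the smallest p), KDM1A, and the 10 genes most like CDH1. Other genes are named as list members or for their values. Single values of a few list members are not reported here. Members and lists were chosen with earlier results of these data known. Medians of lists cover every member on the array unless said to cover tested members. Alternatives changed the background, offset, normalization, filter, source of values, covariates, split, samples, spread and the treatment of several names.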

Additional observations from a re-analysis of the deposited data

Results flagged for a closer look

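Dixon's ratio, the gap of the highest or lowest line to its nearest neighbour over the range of its group of 5, was checked for 84 groups of CDH1 and named genes. A ratio above 0.71 was listed, which chance gives in about 1 group in 20, and 12 groups passed. CDH1 itself had a ratio of 0.868 in the low lines, where Capan-2 (7.50) stood above the next line (5.04).

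Calu-3 stood above the other low lines for AGR2 (ratio 0.909, 10.39 against 5.93) and for S100P (ratio 0.905, 8.91 against 5.23). MIA-PaCa-2 stood above the other low lines for RAB17 (ratio 0.919, 8.93 against 5.11) and MARVELD2 (ratio 0.911, 7.05 against 5.02), and Calu-1 for SERPINB5 (ratio 0.875, 9.05 against 5.68). Malme-3M stood below the other high lines for LCN2 (ratio 0.901, 7.36 against 15.01), ANXA3 (ratio 0.716, 9.04 against 11.32) and SH2D3A (ratio 0.749, 8.34 against 9.20), and above them for EFNB3 (ratio 0.733, 6.63 against 5.33). BxPC-3 stood above the other high lines for COCH (ratio 0.768, 6.55 against 5.38), and NCI-H596 below them for TNFAIP8L1 (ratio 0.735, 5.77 against 6.99).

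The difference between E-cadherin-high and low lines was opposite in lung and pancreas for KCTD14, with a tested difference of -8.93 log2 (limma adjusted p = 0.00441).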

How the results depend on the processing

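Against 87 genes called (66 higher, 21 lower), the count was 60 without background correction (13 lower), 58 with an offset of 50 (12 lower), 57 with the authors' processed values (11 lower), 55 with tissue as a covariate (11 lower), 35 with no filter (24 higher, 11 lower) and 36 with CDH1 as a continuous covariate (28 higher, 8 lower). It was 135 with the lines ranked 5 and 6 left out (113 higher), 125 without the libraries labelled Calu-3, Malme-3M and Capan-2 (36 lower), 6 in lung lines alone (6 higher, 0 lower) and 110 in pancreas lines alone (34 lower). Leaving out 1 line gave 37 to 278 calls, 25 to 212 higher and 9 to 66 lower, and 1 to 32 for the interaction with tissue. Median scaling gave 87 calls, 83 of them shared, a stricter filter 88 (67 shared), the mean of several names 88 (87 shared) and a trended, robust fit 67, all shared. No named gene that was called reversed in any alternative. Genes that were not called and reversed were SOX9 (-0.058 with CDH1 continuous, -1.17 without ranks 5 and 6, -0.89 to 1.24 with 1 line left out, the lowest without Capan-2, -1.17 without the 3 libraries, -1.82 in lung), KDM1A (-0.15 without ranks 5 and 6, -0.18 to 0.19 with 1 line left out, below 0 without Malme-3M, BxPC-3 or Calu-1, -0.15 without the 3 libraries, -0.16 in pancreas), CD14 (-0.14 to 1.09 with 1 line left out, the lowest without AsPC-1, -0.75 in lung), SFTPD (-0.17 without the 3 libraries) and PDX1 (-0.036 in lung). The causes were not tested; lung or pancreas alone and each omission also hold fewer lines. No paired analysis was possible because the labels give no replicate numbers that pair lines across the groups. A level below detection is only a bound.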
